A study of Mus musculus with 4 samples.

Results

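The genes described are 7 that encode subunits of the GABA-A receptor: Gabra2, Gabra3, Gabra4, Gabra5, Gabrb1, Gabrb2 and Gabrd. They were taken from the deposited table by symbol, and all 7 were among its 22552 genes. Values were read as FPKM, which scale fragment counts by transcript length and by the size of the library. Each of the 7 reached 1 FPKM in some library, as did 13248 genes in all. The RNA came from cortical neurons of E16.5 mouse embryos grown in primary culture, and it was sequenced. There were 4 groups with 1 library each: wild type at basal KCl, wild type with 50 mM KCl for 6 h, Brg1-cko at basal KCl and Brg1-cko with 50 mM KCl for 6 h. The genotype of the Brg1-cko (cKO below) is given as BAF53bCre Brg1F/F, and whether the wild-type cultures carried Cre or floxed alleles is not stated. BAF53b is a subunit made in neurons, so cells other than neurons in the same cultures may keep Brg1. Per the labels, the sodium channel blocker TTX (1 µM) and the NMDA receptor blocker APV (100 µM) were given on day 5 in vitro and KCl on day 6, and whether the basal cultures received the blockers is not spelled out. Since each group is 1 library, the spread between cultures is unknown and no p-value is given.

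GABA-A receptors are chloride channels made of 5 subunits around a pore, and they carry most fast inhibition in the cortex. The common synaptic form holds alpha, beta and gamma subunits. GABA binds between alpha and beta, and benzodiazepines bind between alpha and gamma. Receptors with a delta subunit, often together with alpha4, lie outside synapses and respond to low ambient GABA, and receptors with alpha5 are also largely extrasynaptic. In immature cortical neurons alpha2, alpha3 and alpha5 are prominent, and the make-up of the receptors changes as the neurons mature.

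The promoters of 3 genes are shown because these genes bracket the responses described below: Gabrb2 had the lowest KCl ratio in both genotypes, Gabra5 had the highest level with a small KCl ratio, and Gabra4 differed most between genotypes in its KCl response. Each is the 250 bases before the first RefSeq start in the GRCm38.p6 build, which is not the mm9 build named for the deposited values. They lie at chr11:42420190-42420439 (plus strand, Gabrb2), chr7:57510060-57510309 (minus strand, Gabra5) and chr5:71658309-71658558 (minus strand, Gabra4). Capitals mark matches on either strand to a CRE half-site (TGACG), an AP-1 site (TGANTCA), an EGR site (GCGNGGGCG), a TATA box (TATAAA) or a GC box (GGGCGG), and the EGR and GC motifs can overlap.
Gabrb2: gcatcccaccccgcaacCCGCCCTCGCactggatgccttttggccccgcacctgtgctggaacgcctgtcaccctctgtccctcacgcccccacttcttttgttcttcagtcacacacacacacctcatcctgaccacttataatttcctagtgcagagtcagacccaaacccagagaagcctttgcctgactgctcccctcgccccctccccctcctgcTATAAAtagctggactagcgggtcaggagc
Gabra5: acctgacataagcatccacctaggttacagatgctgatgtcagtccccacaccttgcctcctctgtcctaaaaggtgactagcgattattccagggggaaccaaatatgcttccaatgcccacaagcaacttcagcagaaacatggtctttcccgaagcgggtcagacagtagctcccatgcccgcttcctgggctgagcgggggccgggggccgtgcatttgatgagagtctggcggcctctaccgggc
Gabra4: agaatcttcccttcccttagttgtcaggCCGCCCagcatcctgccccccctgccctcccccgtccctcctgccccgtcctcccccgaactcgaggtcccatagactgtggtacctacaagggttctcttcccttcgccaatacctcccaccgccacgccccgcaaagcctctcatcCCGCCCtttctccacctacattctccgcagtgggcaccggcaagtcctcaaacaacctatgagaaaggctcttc
The Gabrb2 window held a TATA box 30 bases before the start and an EGR site that overlapped a GC box. The Gabra4 window held 2 GC boxes and the Gabra5 window none of the 5 motifs. Among 32851 RefSeq windows of this length, 12.4% held the TATA box, 4.70% the EGR site, 32.7% the GC box, 17.8% the CRE half-site and 6.75% the AP-1 site. No CRE half-site and no AP-1 site was found in the windows of the 6 described genes with an entry, which counts letters in these windows only. The entry for Gabrb2 has 3 starts, and the windows of its other 2 starts held none of the 5 motifs. Gabrd had no entry.

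The libraries were alike in total. The values summed to between 302041 and 330621 FPKM, and depth, approximated from the smallest steps in the values, was between 21200000 and 24000000 fragments. Smarca4, the gene of Brg1, stood 3.25-fold below wild type in the basal cKO library and 2.75-fold below in the KCl one. Fos and Npas4, which depolarization switches on, were higher with KCl in both genotypes (log2 ratios of 5.91 and 5.29 in wild type, and 5.59 and 5.13 in the cKO). Xist was at 78.1 FPKM or more in both wild-type libraries and at 0.287 or less in both cKO libraries, and the Y-linked Eif2s3y ran the other way (0.0518 or less, and 32.9 or more). Sex and genotype therefore cannot be told apart in any comparison of the cKO with wild type. All 15 pan-neuronal markers found in the table stood at or above 32.9 FPKM in every library, as the cell type label says. Markers of other cells were present too: in the wild-type basal library the summed levels were 728.1 FPKM over 8 astrocyte markers, 629.7 over 10 oligodendrocyte lineage markers, 219.9 over 10 microglia markers and 21.2 over 10 vascular and fibroblast markers.

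At basal KCl the wild-type culture held mainly alpha5, beta2, alpha2 and alpha3 transcripts among the 7 genes. On the FPKM scale, which is per length, the order of levels was Gabra5 (35.9), Gabrb2 (29.8), Gabra2 (28.7), Gabra3 (21.8), Gabra4 (10.9), Gabrb1 (8.63) and Gabrd (2.31). The first 4 lay within 1.5-fold of their neighbours in this order, as did Gabra4 and Gabrb1, and without replicates such neighbours are not separated here. Gabra3 stood 2.0-fold above Gabra4, and Gabrb1 3.74-fold above Gabrd. Gabra5 lay above 84.9% of the 13248 genes and Gabrd above 17%. In the cKO basal library the order was the same except that Gabra2 (33.2 FPKM) and Gabrb2 (30.2 FPKM) changed places, within 1.10-fold of each other. After KCl Gabrb2 came behind Gabra2 and Gabra3 in both genotypes, Gabra5 kept the top place and Gabrd the bottom one. In the cKO KCl library Gabra4 and Gabrb1 also changed places, within 1.5-fold of each other.

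**Figure D1:**
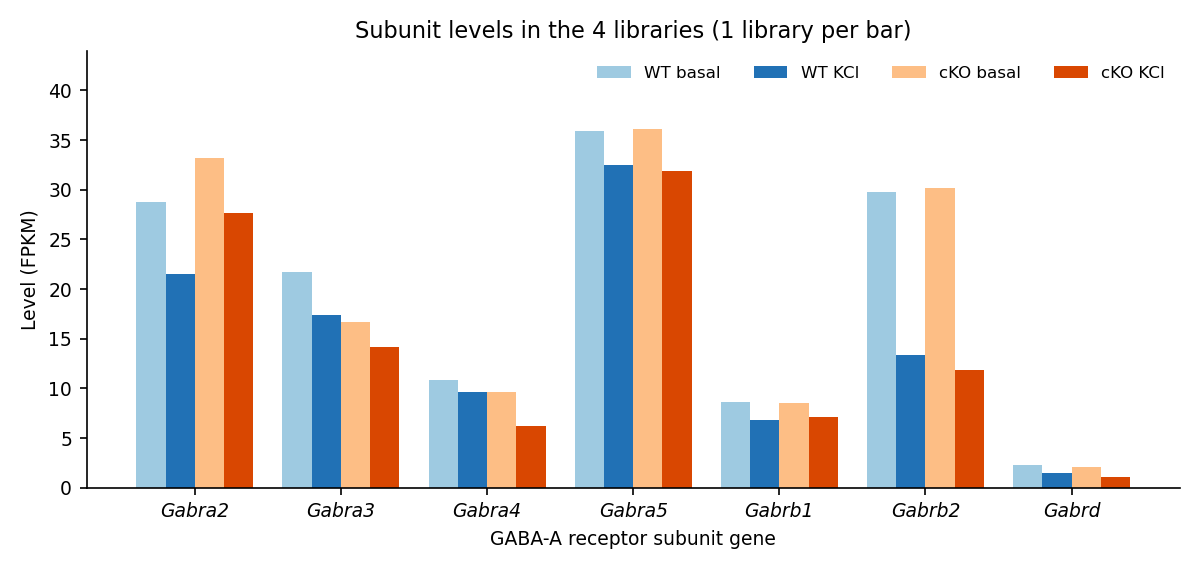
Levels of the 7 subunit genes (FPKM, vertical axis) in the 4 libraries, 1 bar per library with no error bars because each group has 1 library. Gabrb2 stands at 29.8 and 30.2 FPKM in the basal libraries and at 13.3 and 11.9 in the KCl libraries, while Gabra5 stays between 31.9 and 36.2 FPKM.

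KCl against basal within each genotype shows how subunit transcripts stood after depolarization. Gabrb2, which encodes the beta2 subunit, common in the synaptic receptors of mature neurons, was the described gene with the lowest ratio. Its level was 29.8 FPKM in wild-type basal, 13.3 in wild-type KCl, 30.2 in cKO basal and 11.9 in cKO KCl. Both KCl values lay below both basal values, with 1 library per group, and the share of all genes in this order was not counted. Gabrb2 was 2.24-fold lower with KCl in wild type (95% counting interval 2.0 to 2.51) and 2.54-fold lower in the cKO (2.27 to 2.85). These intervals cover counting error only, at approximated depth and with coding length as the transcript length, so they say nothing of differences between cultures. On log2(FPKM + 1) the ratios were −1.11 and −1.28, and 314 of 13248 genes (2.37%) in wild type and 173 (1.31%) in the cKO had lower ones.

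Gabrb2 was the 1 gene of 7 at least 2-fold lower with KCl in wild type, where 3.31% of all genes were that much lower, and no described gene was at least 2-fold higher, where 5.07% of all genes were. In the cKO the count was again 1 of 7 lower, and that gene was again Gabrb2, against 3.09% of all genes, and 0 of 7 higher, against 4.41%. Gabrb2 left the 2-fold size in wild type when 5 FPKM was added to the values (log2 ratio −0.93). It did so in both genotypes when the libraries were rescaled to a list of 20 presynaptic genes, so that the median ratio of that list was equal in all libraries (−0.90 in wild type, −0.996 in the cKO). With values as deposited these 20 genes had a median log2 KCl ratio of −0.21 (wild type) and −0.29 (cKO). Rescalings to 59 ribosomal protein genes and to 15 pan-neuronal genes were made the same way.

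The other 6 genes had smaller ratios. All 7 lay below 0 with KCl in both genotypes, except that rescaling to the presynaptic list put Gabra4 and Gabra5 above 0 in wild type and Gabra2, Gabra3, Gabra5 and Gabrb1 above 0 in the cKO. Gabrb2 stayed below 0 in both genotypes under every setting run, and so did Gabrd except with a filter at 5 FPKM, which leaves it out. Over all genes 50.6% (wild type) and 48.7% (cKO) lay below 0. The median log2 ratio of the 7 was −0.31 (wild type) and −0.26 (cKO), beside −0.0055 and 0.010 for all genes. In the cKO the median of the 7 was 0.03 with rescaling to the presynaptic list.

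Gabrd encodes the delta subunit of extrasynaptic receptors and was the least abundant of the 7. It stood at 2.31 FPKM in wild-type basal, 1.45 in wild-type KCl, 2.11 in cKO basal and 1.10 in cKO KCl. Both KCl values were again below both basal values, with 1 library per group. Gabrd was 1.59-fold lower with KCl in wild type (95% counting interval 1.06 to 2.39) and 1.92-fold lower in the cKO (1.23 to 2.93). At these levels the coding length gives between 36 and 66 fragments per library, the smallest numbers among the 7 genes.

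Gabra2 encodes the alpha2 subunit, common at synapses of young cortical neurons. It stood at 28.7 FPKM in wild-type basal, 21.5 in wild-type KCl, 33.2 in cKO basal and 27.7 in cKO KCl. It was 1.34-fold lower with KCl in wild type (counting interval 1.20 to 1.49) and 1.20-fold lower in the cKO (1.10 to 1.32), a difference that turned to a log2 ratio of 0.03 in the cKO with rescaling to the presynaptic list. The cKO KCl library was nearly level with the wild-type basal one.

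Gabra5 encodes the alpha5 subunit and had the highest level of the 7 genes in every library. It stood at 35.9 FPKM in wild-type basal, 32.5 in wild-type KCl, 36.2 in cKO basal and 31.9 in cKO KCl. The KCl libraries were 1.11-fold lower in wild type (counting interval 1.01 to 1.21) and 1.13-fold lower in the cKO (1.04 to 1.23), and rescaling to the presynaptic list gave log2 ratios of 0.06 and 0.12 instead.

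Gabra3 encodes alpha3, a subunit abundant before birth, and Gabrb1 encodes beta1, the less abundant of the 2 described beta subunits. Gabra3 stood at 21.8 FPKM in wild-type basal, 17.4 in wild-type KCl, 16.7 in cKO basal and 14.2 in cKO KCl. Gabrb1 stood at 8.63, 6.82, 8.52 and 7.17 FPKM in the same order. Their KCl libraries were 1.25-fold and 1.27-fold lower in wild type and 1.18-fold and 1.19-fold lower in the cKO, again with the sign lost in the cKO under rescaling to the presynaptic list (0.06 and 0.05).

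**Figure D2:**
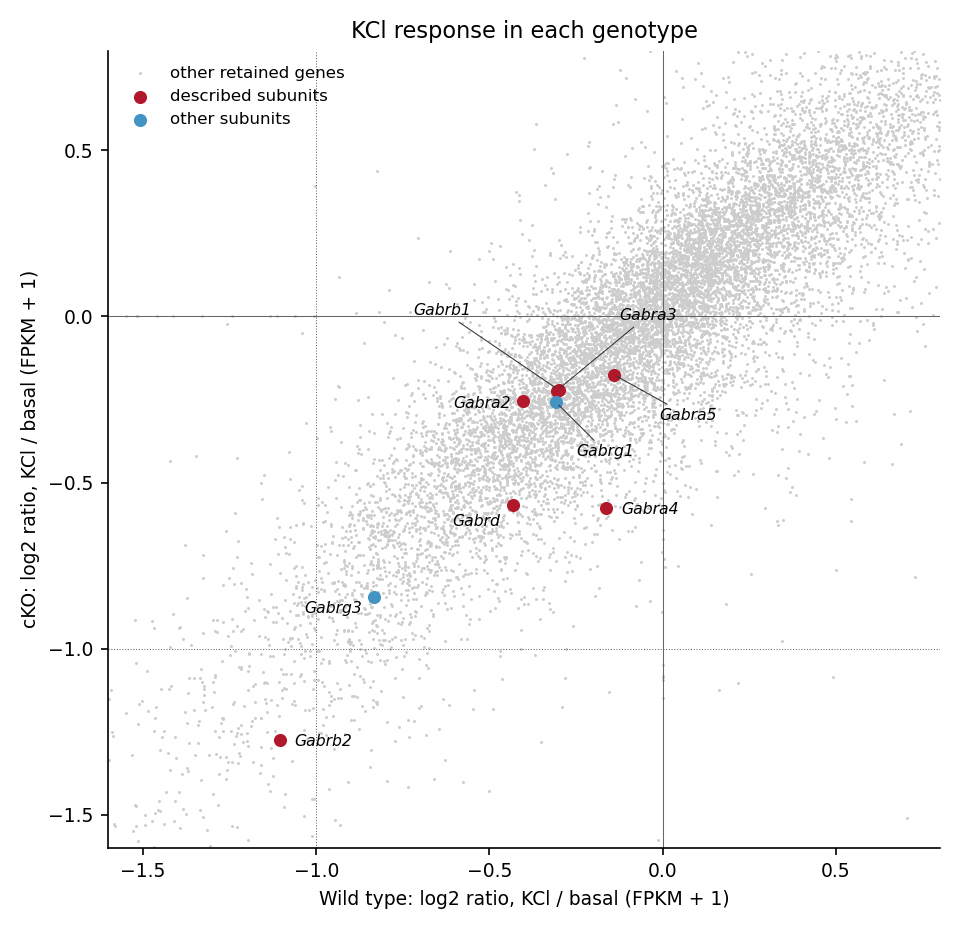
Log2 ratio of KCl to basal, with 1 FPKM added to each value, in wild type (horizontal axis) and in the cKO (vertical axis) for the 7 described subunits, the subunits Gabrg1 and Gabrg3, and the other retained genes inside the axis range. All 9 subunits shown lie below 0 on both axes with values as deposited (7 and 5 of 9 with rescaling to the presynaptic list), Gabrb2 lies past both dotted lines at −1 and Gabra4 lies lower on the cKO axis than on the wild-type axis.

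Gabra4 encodes alpha4, which joins delta in many extrasynaptic receptors, and differed most between genotypes in its KCl response. It stood at 10.9 FPKM in wild-type basal, 9.61 in wild-type KCl, 9.70 in cKO basal and 6.17 in cKO KCl. The first 3 libraries lay close together and the cKO KCl library was low. With KCl Gabra4 was 1.13-fold lower in wild type (counting interval 0.978 to 1.31) and 1.57-fold lower in the cKO (1.33 to 1.85). The log2 responses of −0.16 (wild type) and −0.58 (cKO) differed by −0.41, and 766 genes (5.78%) had a more negative difference. No replicate tests this difference. The difference for Gabra4 was below 0 under every setting run.

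None of the 7 genes differed between genotypes by 2-fold in KCl response. Of all genes, 0.672% had a log2 response more positive by that much in the cKO and 0.793% a more negative one. The median difference of the 7 was −0.03, beside 0.02 for all genes. The differences were 0.15 for Gabra2, 0.08 for Gabra3 and Gabrb1, −0.03 for Gabra5, −0.17 for Gabrb2 and −0.13 for Gabrd. With rescaling to the ribosomal list those of Gabra3 and Gabrb1 turned below 0, and under presynaptic rescaling that of Gabra5 turned above 0.

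The cKO against wild type shows levels with Brg1 low. At basal KCl none of the 7 was at least 2-fold higher or lower, where 0.936% and 0.551% of all genes were, and after KCl none was, where 1.87% and 0.944% were. The 7 had a median log2 ratio of −0.02 in the basal libraries and −0.15 in the KCl libraries (0.14 and 0.10 when rescaled to the presynaptic list, and 0.08 in the basal libraries when rescaled to the pan-neuronal list), beside 0.01 and 0.03 for all genes. The counting intervals of the ratios left out 1 for Gabra2 and Gabra3 at both KCl levels and for Gabra4 after KCl.

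Gabra2 stood 1.16-fold above wild type in the basal cKO library (counting interval 1.05 to 1.27) and 1.29-fold above in the KCl one (1.16 to 1.43), and it was higher in the cKO under every setting run. Gabra3 stood 1.3-fold below (1.17 to 1.46) and 1.23-fold below (1.09 to 1.38). It was lower under every setting run. Rescaling to the presynaptic list took its log2 ratio from −0.36 to −0.19 at basal KCl and from −0.28 to −0.029 after KCl. With values as deposited that list itself had median cKO ratios of −0.17 at basal KCl and −0.20 after KCl. Rescaling to the pan-neuronal list gave Gabra3 −0.26 and −0.24, and to the ribosomal list −0.36 and −0.37. Of all genes 546 (4.12%) had a lower log2 ratio than Gabra3 at basal KCl. Gabra3 is on the X chromosome, and the part of sex in its difference cannot be told apart from that of genotype. Gabra4 was 1.56-fold lower in the cKO after KCl (1.32 to 1.84), with 472 genes (3.56%) lower still, and 1.12-fold lower at basal KCl (0.972 to 1.3), where rescaling to the presynaptic list gave a log2 ratio of 0.01.

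For the remaining 4 genes, at basal KCl the cKO level as a percentage of wild type was 100.7% for Gabra5, 98.8% for Gabrb1, 101.3% for Gabrb2 and 91.4% for Gabrd. After KCl it was 98.3% for Gabra5, 105.1% for Gabrb1, 89.2% for Gabrb2 and 75.7% for Gabrd. All 8 counting intervals of these ratios held 1, and the one for Gabrd after KCl ran from 0.476 to 1.22, so a difference of that size was not detectable at this depth.

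Markers of other cells and of neuron types moved with the genotype as well. Over all genes, with values as deposited, 47.3% lay below 0 in the cKO against wild type at basal KCl and 44.6% after KCl. The summed level of 10 microglia markers was 219.9 FPKM in wild-type basal and 446.0 in cKO basal, and 259.4 and 569.4 after KCl, with none of the 10 at 0. That of 10 vascular and fibroblast markers was 21.2 and 62.7 FPKM at basal KCl and 36.5 and 135.1 after KCl, with 1 of the 10 at 0 in every library. The 12 excitatory neuron markers had a median log2 ratio of −0.05 at basal KCl and −0.43 after KCl, with 12 of 12 below 0 after KCl (9 of 12 with rescaling to the presynaptic list). Of 10 oligodendrocyte lineage markers 4 were at least 2-fold lower in the cKO at either KCl level, and their summed level was 629.7 and 401.8 FPKM at basal KCl and 735.4 and 362.0 after KCl, with none at 0. Interneuron markers lay below 0 for 11 of 13 at both KCl levels, with medians of −0.27 and −0.25 (10 and 7 of 13 with rescaling to the presynaptic list). Astrocyte markers lay below 0 for 7 of 8 at both, with medians of −0.18 and −0.30 (4 of 8 at both under presynaptic rescaling). All 6 genes for GABA synthesis, transport and breakdown, of which 3 are also interneuron markers, lay below 0 at both, with medians of −0.26 and −0.32 (6 and 5 of 6 under presynaptic rescaling). The part of these markers in the genotype differences of Gabra2, Gabra3 and Gabra4 was not tested. In these bulk cultures fewer cells of a type and less RNA per cell cannot be told apart.

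Interneuron markers moved with KCl in the same direction as Gabrb2. Of 13 markers 8 were at least 2-fold lower with KCl in wild type, 8 were in the cKO, none was higher, and the median log2 ratios were −1.19 and −1.23 (6 of 13 in each genotype with rescaling to the presynaptic list, medians −0.99 and −0.96). Their summed level was 191.5 FPKM in wild-type basal, 80.4 in wild-type KCl, 172.0 in cKO basal and 69.6 in cKO KCl, with none at 0. Interneurons carry GABA-A receptors themselves, and the part of the interneuron markers in the Gabrb2 ratio was not tested. Excitatory neuron markers were lower too, with medians of −0.34 and −0.56. The 15 pan-neuronal markers had median log2 ratios of 0.01 (wild type) and −0.02 (cKO). They ran from −2.09 (Tubb3) to 0.58 (Nefl) in wild type and from −2.05 (Tubb3) to 0.28 (Nefl) in the cKO. Only Tubb3 passed 2-fold. With rescaling to these 15 markers the Gabrb2 ratios were −1.09 and −1.33.

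The share of each gene among the described genes of its class shows how their make-up differed, since FPKM are per length. Of the summed FPKM of Gabrb1 and Gabrb2, Gabrb2 made up 77.6% in wild-type basal and 66.1% in wild-type KCl, and 78.0% and 62.4% in the cKO. The sum of both was 38.5 FPKM in wild-type basal and 20.1 in wild-type KCl, and 38.7 and 19.1 in the cKO. The share of Gabrb2 was thus the lower in both KCl libraries. A share does not change with the scaling between libraries.

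Among the 4 described alpha subunits Gabra5 had the largest share, 36.9% in wild-type basal, 40.1% in wild-type KCl, 37.7% in cKO basal and 39.9% in cKO KCl. Gabra2 had 29.5% and 26.5% in wild type and 34.7% and 34.6% in the cKO. Gabra3 had 22.4% and 21.5% in wild type and 17.4% and 17.7% in the cKO. The alpha2 share was thus the higher in both cKO libraries and the alpha3 share the lower, with 1 library per group. Gabra4 had 11.2% and 11.9% in wild type and 10.1% and 7.72% in the cKO. The 4 genes summed to 97.3 FPKM in wild-type basal and 95.8 in cKO basal, and to 81.0 and 79.9 after KCl.

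**Figure D3:**
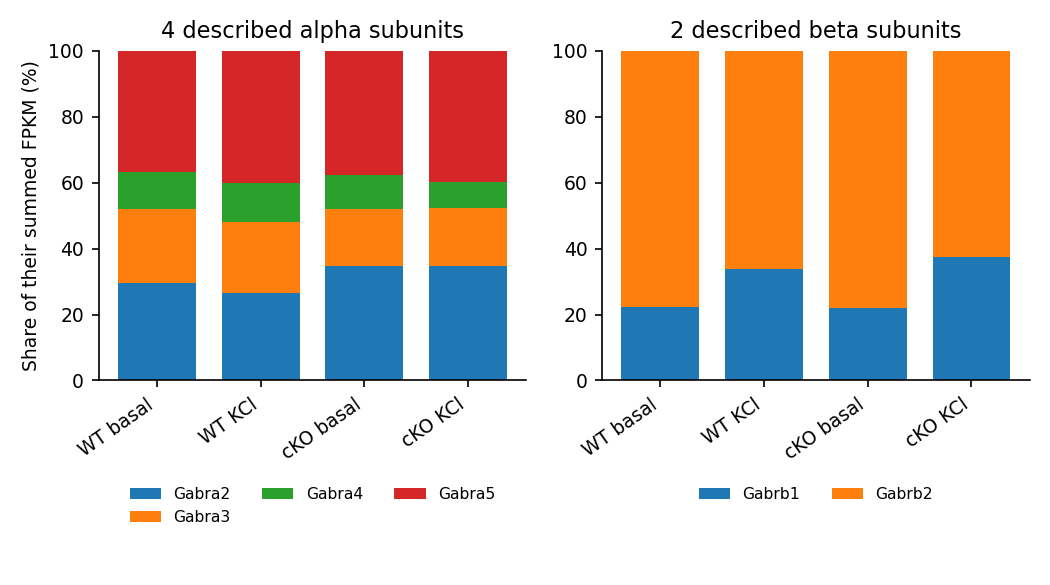
Share of each gene in the summed FPKM of the 4 described alpha subunits (left) and of the 2 described beta subunits (right), in percent on the vertical axis, 1 stacked bar per library. The Gabrb2 block is 77.6% and 78.0% in the basal libraries and 66.1% and 62.4% in the KCl libraries, and Gabra5 is the largest alpha block in all 4.

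Among other subunit genes, Gabrg1 and Gabrg3, which encode gamma subunits, also reached 1 FPKM. Gabrg1 stood at 7.09 FPKM in wild-type basal, 5.54 in wild-type KCl, 4.78 in cKO basal and 3.83 in cKO KCl. Gabrg3 stood at 2.73, 1.09, 2.58 and 0.993 FPKM in the same order. Both were lower in the KCl libraries, Gabrg1 by 1.28-fold (counting interval 1.04 to 1.59) in wild type and 1.25-fold (0.978 to 1.60) in the cKO. Gabrg3 was 2.49-fold lower (1.63 to 3.84) and 2.59-fold lower (1.73 to 4.07), on between 33 and 81 fragments per library. Against wild type, Gabrg1 was 1.48-fold lower in the basal cKO library (1.20 to 1.85), with 297 genes (2.24%) lower still. After KCl it was 1.44-fold lower (1.14 to 1.84). The part of the cell type markers in this difference was not tested. For Gabrg3 the intervals of the cKO against wild type held 1.

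The subunit genes lie in clusters, and the positions here come from GENCODE M21. Gabrb2 sits on chromosome 11 beside Gabra6, which was listed at 0 in every library. Gabra2, Gabra4 and Gabrb1 share a chromosome 5 cluster with Gabrg1, and ratios there ran from −0.40 to −0.16 in wild type and from −0.58 to −0.22 in the cKO. Gabra5 lies on chromosome 7 beside Gabrg3, and these neighbours had unlike log2 KCl ratios: −0.14 and −0.17 for Gabra5 in wild type and the cKO, and −0.83 and −0.84 for Gabrg3. Gabra3 lies on the X chromosome and Gabrd on chromosome 4. Gabra4 and Gabrb1 run in opposite directions and share 46 exonic bases in this annotation, of 6083 for Gabra4 and 13838 for Gabrb1. Reads there cannot be assigned to one of the 2 genes without strand, and the counting rule is not given in the sources used here.

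The other genes of GABA signalling moved unequally with KCl. Of 6 retained genes for GABA synthesis, transport and breakdown 3 were at least 2-fold lower in each genotype and none was higher: Gad1 and Gad2, which make GABA, and Slc32a1, which loads it into vesicles (all 3 are also among the 13 interneuron markers; log2 ratios −1.71, −1.82 and −2.27 in wild type and −1.94, −1.87 and −2.11 in the cKO). Of 11 genes for the scaffold and adhesion of inhibitory synapses none passed 2-fold in wild type. In the cKO 1 was at least 2-fold lower, Slitrk3, a postsynaptic adhesion protein (−0.84 and −1.31). Lhfpl4, which binds synaptic GABA-A receptors, had −0.87 and −0.99, Igsf9b −0.52 and −0.60, and Mdga2 0.05 and −0.54. The list's median was −0.02 (wild type) and −0.34 (cKO). In the KCl libraries all 11 stood below wild type in the cKO, with a median of −0.29 (under presynaptic rescaling 7 of 11, median −0.08). Of all genes 44.6% stood below wild type there with values as deposited.

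Of 13 genes for receptor assembly, trafficking and anchoring none passed 2-fold in either genotype, and the medians were 0.25 and 0.20 (−0.11 and −0.25 with rescaling to the ribosomal list). Gabarap, which links receptors to microtubules, had log2 KCl ratios of 0.39 (wild type) and 0.54 (cKO), Rdx, the radixin gene whose product anchors alpha5, had 0.58 and 0.60, Plcl1 0.59 and 0.40, and Plcl2 −0.62 and −0.76. Of 12 chloride transport genes none passed 2-fold, with medians of 0.33 and 0.10 (0.0012 and −0.33 with rescaling to the ribosomal list). The kinase gene Wnk1, a regulator of chloride cotransporters, had 0.93 and 0.66, the cotransporter gene Slc12a4 0.60 and 0.75, the bicarbonate exchanger gene Slc4a10 −0.79 and −0.65, and Clcn3 0.62 and 0.09. Of 9 genes for the GABA-B receptor and its partners 1 was at least 2-fold lower in wild type and 2 in the cKO. Kctd12, an auxiliary subunit, had −1.46 and −1.18, and Kctd16 −0.96 and −1.17. Kcnj6, a potassium channel that GABA-B receptors open, had −0.39 and −0.87, and Kctd8 0.24 and −0.30. Among glycine receptor genes, whose products are related chloride channels, 2 of 5 were retained, with Glra2 at −0.66 and −0.45 and Glrb at −0.003 and 0.12.

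**Figure D4:**
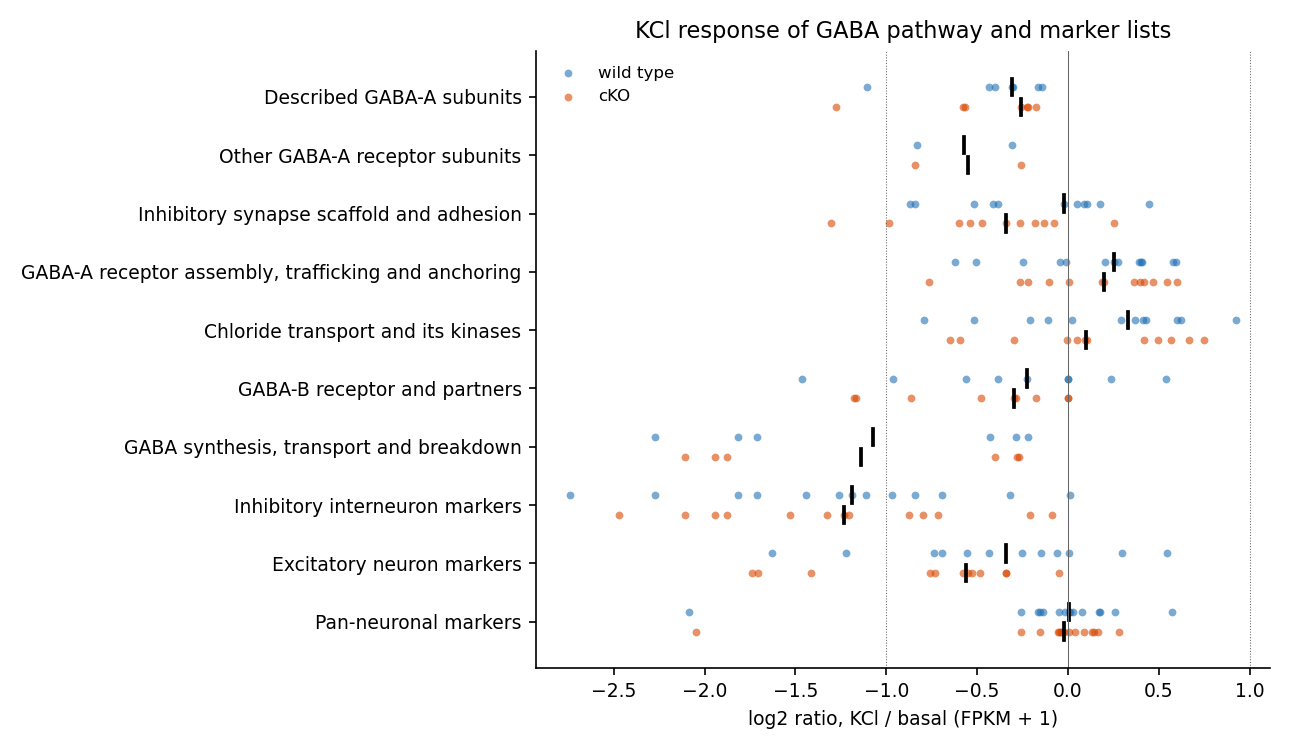
Log2 ratio of KCl to basal (1 FPKM added; horizontal axis) for each retained gene of 10 lists, with wild type in blue, the cKO in orange and the median as a black bar; dotted lines mark 2-fold. The described subunits have medians of −0.31 and −0.26, between interneuron markers (−1.19 and −1.23) and receptor trafficking genes (0.25 and 0.20), with values as deposited.

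Likeness of pattern was measured as the Euclidean distance between 3 log2 ratios (KCl in wild type, KCl in the cKO and cKO against wild type at basal KCl) among 9316 named genes that reached 5 FPKM in some library. For Gabrb2 the nearest genes were Smcr7 (distance 0.054) and Kcnj11, a potassium channel subunit (0.093), and these were the only 2 within 0.1. For Gabra4 they were Fam123b (0.062) and Mterfd3 (0.082), with 5 genes within 0.1. The nearest were Atpbd4 (0.018) for Gabra2, Hip1r (0.046) and Gnb4 (0.049) for Gabra3, and Mul1 (0.029) and Ctif (0.042) for Gabrd. They were Ift46 (0.017) and Sgpp1 (0.023) for Gabra5, and Tmem127 (0.013) and Syngr3 (0.017) for Gabrb1, where 198 and 202 genes lay within 0.1. These distances to the nearest genes were smaller than the counting intervals of the subunits' KCl ratios are wide on log2. For Gabrd, at 36 to 66 fragments per library, those intervals were widest (1.06 to 2.39-fold and 1.23 to 2.93-fold lower). The 1 FPKM added also draws the ratios of Gabrd toward 0. Among the 7 genes themselves Gabra5 and Gabrb1 were the closest pair (0.17). With 1 FPKM added, Gabrb2 lay 0.98 to 1.46 from each of the other 6. Those lay at most 0.58 from each other. With 0.1 FPKM added the log2 KCl ratios of Gabrd were −0.63 (wild type) and −0.88 (cKO), nearer those of Gabrb2 (−1.16 and −1.34). This separation of Gabrb2 then no longer held for Gabrd.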

How the data were processed

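The authors deposited 1 table with a value per gene in each of 4 libraries. The labels do not name its unit; the values were read as FPKM, as scaled by the authors, because they are not whole numbers and low values lie on steps that differ by gene. TopHat 1.3.2 and mm9 are named in the submitters' processing notes, and the quantification program, annotation and strand setting were each not given in the sources used here. Columns were matched to samples by their descriptions.

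A gene was retained if any library held 1 FPKM of it (13248 genes). Log2 ratios were taken after adding 1 FPKM, a size of 2-fold was fixed for counting genes, and a single gene's fold is the ratio of its deposited values. Depth was approximated from the step of 1 fragment on transcripts longer than 2000 bases (lengths from GENCODE M21), and 95% intervals are exact binomial on coding length, which is shorter than most transcripts and so errs wide. The subunits, gene lists, 2-fold size and naming rule were chosen with earlier results of these data known. Named genes were the 7 subunits, other subunits at 1 FPKM or more, up to 4 per pathway list with the largest ratios, the 2 nearest in pattern per subunit (unnamed genes and small RNAs left out) and 5 label checks. A few genes that this rule names are not reported here, and the subunit shares and list counts were computed without them. Alternatives were a pseudocount of 0.1 or 5, no filter or 5 FPKM, and rescaling to the median ratio, the upper quartile, 59 ribosomal, 15 pan-neuronal or 20 presynaptic genes, the last chosen after seeing the data. Python 3.11.15, NumPy 2.4.6, pandas 2.3.3, SciPy 1.17.1 and matplotlib 3.10.9 were used. The counting procedure was tested on simulated data with counting error only and planted changes larger than 2-fold. That test says nothing of changes near 2-fold or of the spread between cultures.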

Additional observations from a re-analysis of the deposited data

Results flagged for a closer look

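For 3 of the 7 subunits the sign of the cKO against wild type turned between basal KCl and KCl. The share of all genes whose sign turned was not counted. The counting intervals of the cKO against wild type held 1 for these 3 genes at both KCl levels. These differences were not tested, since each group has 1 library. Gabrb2 had log2 ratios of 0.02 and −0.15, a change of −0.17. Gabrb1 had −0.02 and 0.06, a change of 0.079, and Gabra5 had 0.01 and −0.02, a change of −0.033. The opposite signs of Gabrb2 and Gabrb1 were lost with rescaling to the presynaptic list, those of Gabrb1 also with the ribosomal and the pan-neuronal list, and those of Gabra5 with the pan-neuronal and the presynaptic list.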

How the results depend on the processing

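No paired analysis was possible because each group has 1 library, and none could be left out in turn. Of 90 counts and medians recomputed under the alternatives, 83 stayed within 1.5 times (counts) or within a bound set from single-gene counting intervals (medians). That bound is not the counting error of a median, and for the difference in response it joins 2 intervals, so it is wide. A median near 0 could change sign and still count as staying. Counts and medians with no filter could not differ, since all 7 subunits were already retained. The filter at 5 FPKM left out only Gabrd, which was not past 2-fold, so it could not change the counts of subunits. The count of subunits past 2-fold with KCl in wild type went from 1 to 0 with a pseudocount of 5 and after presynaptic rescaling, which also took the count in the cKO from 1 to 0. Rescaling to the ribosomal list moved the median of the subunits to −0.66 in wild type and −0.71 in the cKO. Rescaling to the presynaptic list gave a median of 0.035 for KCl in the cKO and of 0.10 for the cKO against wild type after KCl. These rescalings moved the median of all genes with KCl to −0.33 and −0.40 (ribosomal) and to 0.17 and 0.28 (presynaptic) in wild type and the cKO. They moved the share of higher genes among those past 2-fold from 60.5% and 58.8% to 24.0% and 17.8% and to 78.0% and 82.6%. For the cKO against wild type after KCl that share was 66.5%, 55.2% (ribosomal) and 84.0% (presynaptic), at basal KCl 62.9% and 75.9% (presynaptic), and for the difference in response 45.9%, 34.6% and 55.2%. The number of all genes at least 2-fold higher and lower with KCl was 672 and 439 in wild type and 584 and 410 in the cKO. It was 1029 and 838, and 878 and 787, with a pseudocount of 0.1, and 261 and 78, and 222 and 89, with a pseudocount of 5. Ribosomal rescaling gave 389 and 1233, and 292 and 1349, and presynaptic rescaling 940 and 265, and 1008 and 212. For the cKO against wild type it was 124 and 73 at basal KCl and 248 and 125 after KCl. With a pseudocount of 0.1 it was 377 and 132, and 486 and 240, and with a pseudocount of 5 it was 29 and 19, and 73 and 37. After KCl presynaptic rescaling gave 447 and 85. For the difference in response, 89 and 105 became 179 and 198 with a pseudocount of 0.1, 16 and 26 with 5, and 32 and 51 with a filter at 5 FPKM. At basal KCl that filter left 42 lower genes. Which scaling fits these cultures was not tested.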
